A study of Homo sapiens with 18 samples.

Results

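Expression of 9 genes of the TGF-beta and activin pathway was followed in human melanoma cells made to overexpress the small MAF transcription factor MAFG. They comprised the ligand genes TGFB1, TGFB2, TGFB3 and INHBA, the activin antagonist FST, and the genes PMEPA1, SMAD7, SKIL and TGFBI, which SMAD signaling is known to raise. The 9 genes were 9 of 58870 in the count table. Of these, 8 were found by their name, and TGFB1 was found by its Ensembl identifier, because the table gives that row another name. They were chosen from measured MAFG against GFP fold changes of these same libraries, so that their values are a description and no p-value is given for them. RNA-seq was performed on WM164, SKMEL28 and A375 cells, which are established BRAF-mutant melanoma lines, with 3 libraries in each of 6 conditions. Each line carried a lentiviral vector with an EF1α promoter and blasticidin resistance, expressing either a Myc-DDK-tagged MAFG open reading frame or GFP as control. All libraries, controls included, therefore came from cells transduced with this vector and grown in serum. No source used here says whether the 3 libraries of a condition came from separate cultures, so that their spread may be technical.

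TGF-beta ligands are secreted in a latent form, and once freed they bring together the receptors TGFBR2 and TGFBR1, which phosphorylate SMAD2 and SMAD3. Activin A, a dimer of the INHBA product, uses the receptors ACVR2A or ACVR2B and ACVR1B and ends at the same SMADs, while follistatin, the FST product, wraps activin and keeps it from its receptors. Several SMAD targets close a negative loop: PMEPA1 sequesters SMAD2 and SMAD3, SMAD7 blocks the receptors, and SKIL is a SMAD co-repressor. In the melanocyte lineage, TGF-beta signaling is known to lower MITF and pigment genes.

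The promoters of INHBA, FST and PMEPA1 are shown first, because these 3 genes had the largest called fold changes and the later results turn on them. The sequences are the 250 bases before a start site on the gene's own strand, from RefSeq on GRCh38.p14, and capitals mark a match to one of the searched motifs. INHBA lies at chr7:41703091-41703340 (minus strand) in this window, FST at chr5:53480379-53480628 (plus strand), and the first and second of 4 PMEPA1 start sites at chr20:57711473-57711722 and chr20:57710578-57710827 (minus strand).
INHBA: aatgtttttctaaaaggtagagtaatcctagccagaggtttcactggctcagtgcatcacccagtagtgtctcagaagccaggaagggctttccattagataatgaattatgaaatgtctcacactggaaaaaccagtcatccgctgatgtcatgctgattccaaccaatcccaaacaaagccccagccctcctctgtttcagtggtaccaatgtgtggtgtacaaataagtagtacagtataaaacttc
FST: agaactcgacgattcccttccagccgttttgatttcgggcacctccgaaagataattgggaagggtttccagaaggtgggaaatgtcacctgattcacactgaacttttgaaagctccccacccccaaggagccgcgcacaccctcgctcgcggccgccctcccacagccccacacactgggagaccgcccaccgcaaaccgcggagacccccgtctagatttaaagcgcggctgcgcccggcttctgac
PMEPA1 first start: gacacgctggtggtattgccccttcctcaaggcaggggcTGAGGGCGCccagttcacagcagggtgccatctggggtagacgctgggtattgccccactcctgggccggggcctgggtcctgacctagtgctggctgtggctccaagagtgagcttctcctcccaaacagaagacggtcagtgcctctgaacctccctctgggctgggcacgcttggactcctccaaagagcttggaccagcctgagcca
PMEPA1 second start: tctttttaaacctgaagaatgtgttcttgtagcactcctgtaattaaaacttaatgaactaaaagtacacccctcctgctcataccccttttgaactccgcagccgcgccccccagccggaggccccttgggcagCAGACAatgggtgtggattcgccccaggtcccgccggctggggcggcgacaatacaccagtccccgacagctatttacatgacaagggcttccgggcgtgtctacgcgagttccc

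Windows of 300 bases, from 250 before to 50 after the start site, were searched on both strands for 5 motifs, and the 9 genes had 15 such windows. The palindromic SMAD element GTCTAGAC was in 0 of the 15 and in 0.202% of 35116 windows in RefSeq. Its shorter form, spelled CAGACA, was in 3 of the 15 and in 16.9% of RefSeq windows, and lay at 115 bases before the second PMEPA1 start, at 53 bases before the TGFB2 start and at +27 in INHBA. The element TGANNNNGC, which small MAF proteins read with CNC partners, was in 7 of the 15 and in 41.8% of RefSeq windows. In PMEPA1 it lay at 211 bases before the first start, at +31 of the second and at 173 bases before the fourth. The match at +31 lies past the printed bases. The MITF element CACGTG was in 2 of the 15 (TGFB2 and TGFB3) and in 7.26% of RefSeq windows, and in TGFB2 it overlapped the short SMAD form. The other MITF element, CATGTG, was in 2 of the 15 (INHBA, on the opposite strand at +41, and TGFB3) and in 11.1% of RefSeq windows. The FST window held none of the 5 motifs. These are matches of letters, and binding was not measured.

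The libraries held 20122172 to 39025042 counts, with a median of 31061375. MAFG was higher in every MAFG library than in the GFP libraries of the same line, by 1.04 on the log2 scale in WM164 (edgeR quasi-likelihood test, adjusted p = 6.37e-08), by 0.64 in SKMEL28 (adjusted p = 0.000128) and by 0.80 in A375 cells (adjusted p = 0.0655, which missed the threshold). In deposited TPM the MAFG means were 2.89 ± 0.543 with GFP and 24.5 ± 3.34 with MAFG in WM164, 3.96 ± 0.641 and 17.0 ± 2.66 in SKMEL28, and 4.22 ± 0.291 and 25.2 ± 2.88 in A375 (SD, n = 3), so that the size of the overexpression depended on the measure. WM164 and SKMEL28 libraries expressed all 7 melanocyte lineage markers, with a summed level of 2638 to 5046 CPM (counts scaled to library size). A375 libraries did not: MLANA and TYR had 0 counts in every library, DCT had at most 1 and PMEL at most 22. Of the markers of other cell types, the 4 keratinocyte markers summed to at most 0.825 CPM and the 4 leukocyte markers to at most 1.73 CPM. The 7 fibroblast markers, some of which melanoma cells also express, summed to 11.03 to 21.3 CPM, with THY1 at no more than 5 counts in any library. The cell lines are single cell types by label, and in bulk RNA fewer expressing cells and less RNA per cell cannot be told apart. Among replicates, A375 MAFG replicate 1 stood farthest from its group, with a mean chi-square per gene (1 under sampling noise alone) of 68.7 and 96.7 against the other 2 libraries, where the pairs of the other groups had 5.90 to 30.2. Without it, 153 genes were called in A375 in place of 105.

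For each line, MAFG libraries were compared with GFP libraries by a fit across all genes that passed a filter on low counts. A gene is called when its adjusted p is 0.05 or less and its fold change is above 2. Of the 9 genes, 8 were tested in WM164 (TGFBI had too few counts) and 9 each in SKMEL28 and A375 cells. In WM164, INHBA, FST and PMEPA1 were called higher and 0 lower by edgeR and by DESeq2 (0 also at an unadjusted p under 0.05), where 4.94% of all tested genes were called higher and 2.0% lower. The same 3 genes were called higher in SKMEL28 and TGFB1 was called lower, where 1.76% of tested genes were called higher and 2.98% lower. In A375 cells PMEPA1 alone of the 9 was called higher and 0 lower by both tools (0 also at an unadjusted p under 0.05), where 0.646% were called higher and 0.0190% lower. Nothing is read from these shares, since the same fold changes chose the genes. The libraries of the groups did not overlap for 7 of the 8 tested genes in WM164, 6 of 9 in SKMEL28 and 4 of 9 in A375 cells, against 43.4%, 43.0% and 12.3% of all tested genes.

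**Figure D1:**
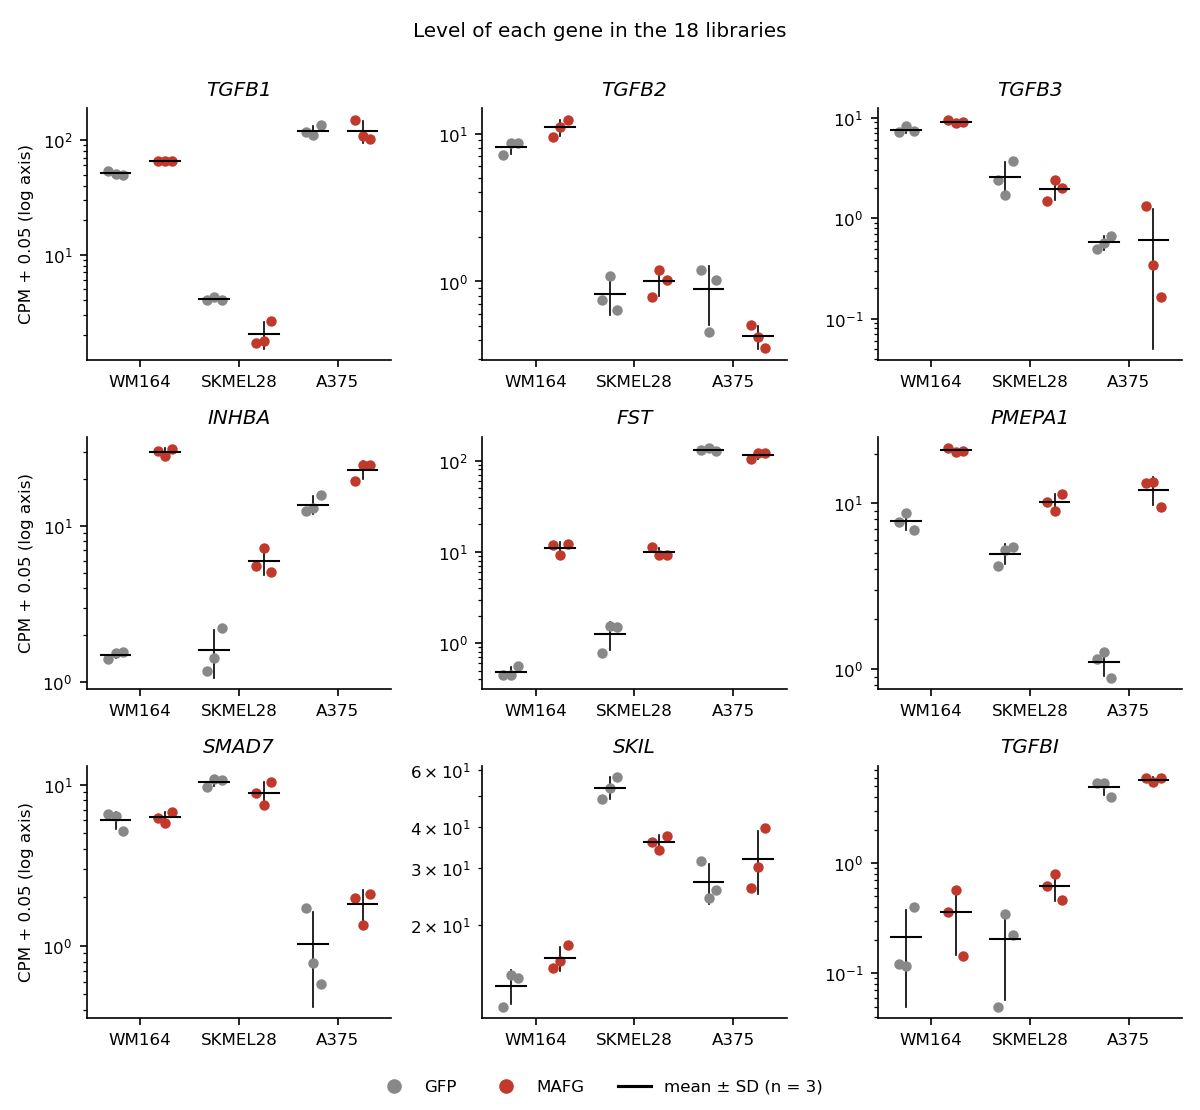
Level of the 9 genes in the 18 libraries, in CPM on a log axis with 0.05 added to each value, by cell line on the x axis. Gray points are GFP and red points MAFG libraries, horizontal lines are means and vertical lines are SD (n = 3), cut at a CPM of 0. INHBA and FST libraries with MAFG lie far above their GFP controls in WM164 and SKMEL28, while FST is near 100 CPM or above in every A375 library.

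**Figure D2:**
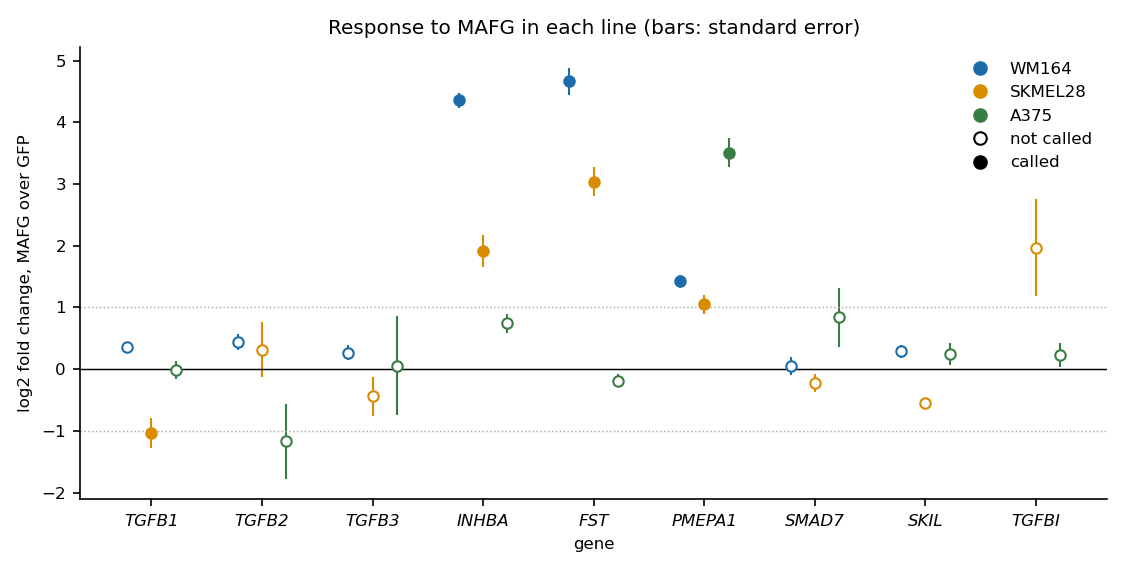
The log2 fold change of MAFG over GFP for each gene (x axis) in WM164 (blue), SKMEL28 (orange) and A375 (green), with bars for the standard error; filled points are called and dotted lines mark a fold change of 2. PMEPA1 is the gene with a filled point in all 3 lines, and TGFB1 in SKMEL28 is the filled point below 0.

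INHBA, the activin A subunit gene, was higher with MAFG in all 3 lines and most in WM164. In WM164 GFP libraries its level was 1.36, 1.49 and 1.501 CPM, and with MAFG it was 30.2, 28.1 and 31.2 CPM. The groups were far apart, at 38 to 45 counts against 760 to 1010 counts, and the log2 fold change was 4.36 (standard error, SE, 0.12), which is 20.5-fold. SKMEL28 cells started from a like level, 1.13, 1.38 and 2.17 CPM, and reached 5.47, 7.17 and 5.07 CPM with MAFG. This is a log2 fold change of 1.91 (SE 0.26), or 3.76-fold, and the groups did not overlap. A375 cells already expressed INHBA without MAFG, at 12.4, 13.0 and 15.8 CPM, and had 19.5, 24.7 and 24.6 CPM with it. All 3 A375 libraries with MAFG exceeded the GFP libraries, but the log2 fold change of 0.74 (SE 0.16) was under the fold limit and did not pass the adjusted p threshold in the fit of that line alone. It passed that threshold in 4 of 14 alternatives, each time under the fold limit. These were DESeq2 (0.74), no count filter (0.74), all 18 libraries in one fit (0.74) and the fit without MAFG replicate 1 (0.87). The antisense gene INHBA-AS1 overlaps INHBA exons, and whether the counting used strand is not stated. The other inhibin and activin subunits were low: INHBB had at most 9 counts in any library, and INHA had 57 to 111 counts in WM164 but at most 14 in the other lines.

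In the same libraries the summed level of the 7 melanocyte lineage markers went from 4695 to 5029 CPM with GFP to 2638 to 2767 CPM with MAFG in WM164, and from 4789 to 5046 CPM to 4161 to 4387 CPM in SKMEL28. In WM164, PMEL, MLANA, TYR and DCT were called lower, and SOX10 and S100B overlapped between the groups. MITF was lower there by less than the fold limit (log2 fold change -0.65, edgeR adjusted p = 1.55e-08). In SKMEL28 the list was mixed: PMEL made up most of the difference, with means of 1697 and 1072 CPM, while S100B was higher with MAFG (log2 fold change 0.58, edgeR adjusted p = 5.16e-06) and MLANA, DCT and SOX10 overlapped. MITF (-0.20, edgeR adjusted p = 0.00967) and TYR (-0.23, edgeR adjusted p = 0.00355) were lower there without overlap, by less than the fold limit. The sum of 4 markers of dedifferentiated melanoma (AXL, NGFR, EGFR and WNT5A) went from 24.9 to 29.6 CPM to 67.9 to 75.5 CPM in WM164 and from 11.9 to 15.8 CPM to 87.4 to 103 CPM in SKMEL28, and was 734 to 880 CPM in A375 libraries. AXL and NGFR were called higher in WM164 and SKMEL28, and EGFR in WM164. WNT5A overlapped between the groups in both lines, and EGFR in SKMEL28. In A375, AXL had means of 633 and 591 CPM with GFP and MAFG, and NGFR had 1.72 and 1.01 CPM. The summed fibroblast markers went from 20.03 to 20.6 CPM to 12.9 to 14.0 CPM in WM164, where LUM was lower and PDGFRB and COL1A2 were called higher from low counts, and from 11.03 to 12.4 CPM to 18.3 to 21.3 CPM in SKMEL28, where LUM was higher. The part of these markers in the INHBA and FST values was not tested.

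FST, which encodes follistatin, had the largest fold change of the 9 genes in WM164 and SKMEL28. WM164 GFP libraries had 0.393, 0.398 and 0.514 CPM, which is 11 to 13 counts, and MAFG libraries had 11.8, 9.13 and 12.3 CPM, a log2 fold change of 4.67 (SE 0.22) or 25.4-fold. In SKMEL28 the GFP libraries were at 0.733, 1.48 and 1.45 CPM and the MAFG libraries at 11.3, 9.07 and 9.20 CPM, a log2 fold change of 3.03 (SE 0.23) or 8.19-fold. With MAFG the levels of these lines overlapped, although they had been apart without it. A375 cells were different from the start, with 129.6, 135.8 and 126.4 CPM in GFP libraries. There, MAFG libraries had 103.0, 120.7 and 120.9 CPM, each below each GFP library, with a log2 fold change of -0.19 (SE 0.11) that was not called and was -0.09 without MAFG replicate 1. The A375 GFP mean of 130.6 CPM was the highest of the 6 conditions, and the WM164 MAFG mean of 11.1 ± 1.70 CPM (SD, n = 3) stayed an order of magnitude below it. No other annotated gene overlaps FST.

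Because activin and follistatin act against each other, the FST to INHBA ratio was computed from deposited TPM, which account for transcript length and library size. In WM164 the ratio of the 2 levels was 1.14 ± 0.563 with GFP and 0.825 ± 0.0767 with MAFG (SD, n = 3), and the groups overlapped. In SKMEL28 it was 2.64 ± 0.891 with GFP and 5.68 ± 0.512 with MAFG, without overlap, so that FST was higher by more than INHBA. In A375 it was 30.9 ± 5.76 with GFP and 16.2 ± 1.82 with MAFG, also without overlap and in the other direction. Both genes were at 0.29 TPM or less in GFP libraries of WM164. In those of SKMEL28, INHBA was at 0.15 to 0.32 TPM (28 to 63 counts) and FST at 0.31 to 0.77 TPM (22 to 42 counts). The GFP ratios of both lines thus rest on few reads. Over the 18 libraries, log2 CPM of INHBA and FST had a Pearson r of 0.812, which describes points that fall into 3 cell lines sharing their own levels.

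**Figure D3:**
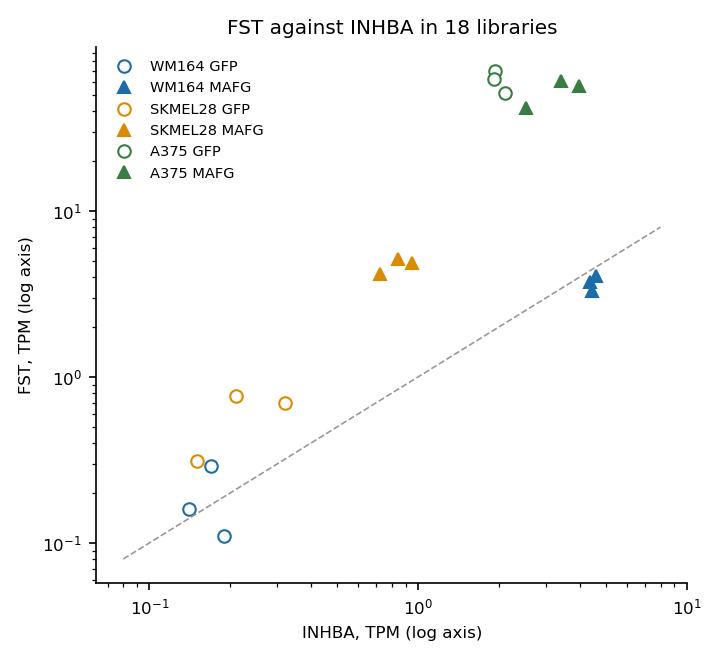
FST against INHBA in TPM, both on log axes, in 18 libraries: open circles are GFP and triangles MAFG, in WM164 (blue), SKMEL28 (orange) and A375 (green); the dashed line marks equal levels. WM164 libraries lie near the dashed line, at a ratio of 1.14 with GFP and 0.825 with MAFG, and A375 libraries lie far above it at 14.2 to 35.8.

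PMEPA1, the SMAD target whose product sequesters SMAD2 and SMAD3, was the member called higher in all 3 lines. In A375 cells, the line with the lowest starting level, it went from 1.09, 1.22 and 0.837 CPM to 13.3, 13.5 and 9.42 CPM with MAFG. That is a log2 fold change of 3.51 (SE 0.23), or 11.4-fold, from 30 to 45 counts to 405 to 525 counts. In WM164 it had 7.71, 8.69 and 6.83 CPM with GFP and 21.4, 20.5 and 20.7 CPM with MAFG, a log2 fold change of 1.43 (SE 0.11). SKMEL28 libraries had 4.16, 5.22 and 5.42 CPM with GFP and 10.1, 9.003 and 11.4 CPM with MAFG, a log2 fold change of 1.05 (SE 0.16). The groups did not overlap in any of the 3 lines, and the MAFG levels of A375 and SKMEL28 overlapped. The SKMEL28 value lies at the fold limit: without GFP replicate 1 it was 0.94 and without MAFG replicate 3 it was 0.96, so that it was then not called. On log2(TPM + 1) and log2(TPM + 0.1) it was 0.50 and 0.83, and there it also missed the adjusted p threshold. In A375 libraries, the lineage factor SOX10 moved with PMEPA1, from 6.93 to 11.5 CPM with GFP to 97.9 to 142 CPM with MAFG, and its part in the PMEPA1 value was not tested. The summed level of the 7 melanocyte lineage markers went from 35.3 to 41.6 CPM to 120 to 172 CPM, which was nearly all SOX10, since MITF had means of 28.6 and 27.4 CPM and overlapped. In WM164 and SKMEL28, SOX10 differed by less than 0.05 on the log2 scale. The antisense gene NKILA overlaps PMEPA1 exons, so that its reads may be included.

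Levels of the TGFB ligand genes differed widely between lines, and TGFB1 in SKMEL28 was the one called value among them. TGFB1 was 53.6, 50.7 and 49.3 CPM in WM164 GFP libraries and 65.1, 65.6 and 66.0 CPM in MAFG libraries, which did not overlap, with a log2 fold change of 0.36 (SE 0.06). It passed the adjusted p threshold but not the fold limit. In SKMEL28 TGFB1 was low, at 3.997, 4.23 and 4.004 CPM with GFP, and lower still with MAFG, at 1.64, 1.72 and 2.59 CPM. The log2 fold change was -1.04 (SE 0.24), which was called; without MAFG replicate 1 it was -0.92 and without MAFG replicate 2 it was -0.95, each under the fold limit. In A375, TGFB1 had its highest levels, with 117.5, 111.1 and 134.7 CPM with GFP and 150.6, 109.2 and 102.6 CPM with MAFG, which overlapped (log2 fold change -0.01, SE 0.14, or -0.17 without MAFG replicate 1). Exons of HNRNPUL1 overlap TGFB1 on the opposite strand, so that some reads may belong to that gene.

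TGFB2 and TGFB3 were expressed mainly in WM164. TGFB2 in that line was 7.14, 8.63 and 8.53 CPM with GFP and 9.48, 11.01 and 12.3 CPM with MAFG, a log2 fold change of 0.43 (SE 0.13) that passed the adjusted p threshold and not the fold limit. TGFB3 was 7.14, 8.16 and 7.43 CPM with GFP and 9.55, 8.76 and 9.05 CPM with MAFG, a log2 fold change of 0.27 (SE 0.12) that passed neither. Outside WM164, TGFB2 had 13 to 44 counts per library and TGFB3 had 5 to 106, and neither was called. The log2 fold change of TGFB2 was 0.32 (SE 0.44) in SKMEL28 and -1.17 (SE 0.60) in A375 cells. For TGFB3 it was -0.44 (SE 0.32) and 0.05 (SE 0.80), and the A375 value rested on MAFG replicate 1 with 50 counts beside 11 and 5: without that library it was -1.34. Per length, TGFB1 made up 98.8% of the summed mean TPM of the 3 ligands in A375 GFP cells, 73.4% in WM164 GFP cells and 40.7% in SKMEL28 GFP cells, where TGFB3 made up 55.6%. With MAFG the TGFB1 share was 99.2%, 73.3% and 38.2% in the same order. The summed mean TPM of the 3 genes was 15.4 with GFP and 22.2 with MAFG in WM164, 3.09 and 1.56 in SKMEL28, and 38.6 and 35.2 in A375 cells. On the TPM scale the median tested gene was shifted as well. With MAFG, its log2(TPM + 1) moved by 0.137 for WM164, -0.143 for SKMEL28 and -0.103 for A375. The count fits had medians of -0.002, -0.008 and 0 in the same order. The lower SKMEL28 sum includes TGFB3, with mean TPM of 1.72 and 0.843, whose count fit was not called. The sums alone thus do not give the size of a ligand change. The antisense genes TGFB2-AS1 and TGFB3-AS1 overlap exons of these ligands.

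SMAD7 and SKIL, the other feedback inhibitors, were not called in any line. SMAD7 was 6.50, 6.34 and 5.14 CPM in WM164 GFP libraries and 6.12, 5.77 and 6.77 CPM in MAFG libraries, and its log2 fold change of 0.05 (SE 0.15) turned to -0.05 without GFP replicate 3. In SKMEL28, where SMAD7 was highest, the GFP mean was 10.4 ± 0.675 and the MAFG mean 8.85 ± 1.47 CPM, with a log2 fold change of -0.23 (SE 0.14). In A375 it was 1.67, 0.734 and 0.530 CPM with GFP and 1.95, 1.298 and 2.05 CPM with MAFG, a log2 fold change of 0.84 (SE 0.48) that was 1.47 without GFP replicate 1 and 0.55 without GFP replicate 3. In CPM the groups overlapped in all 3 lines. In deposited TPM the WM164 groups did not overlap, at 0.73 to 0.92 with GFP and 1.04 to 1.16 with MAFG. Nor did those of SKMEL28, at 2.6 to 3.18 with GFP and 1.56 to 2.55 with MAFG. The median tested gene moved in the same directions on log2(TPM + 1), by 0.137 for WM164 and -0.143 for SKMEL28.

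SKIL had opposite directions in WM164 and SKMEL28. It was 11.2, 14.0 and 13.7 CPM with GFP and 14.7, 15.4 and 17.3 CPM with MAFG in WM164, without overlap, and its log2 fold change of 0.29 (SE 0.11) missed the adjusted p threshold. In SKMEL28, which had the highest levels, GFP libraries were at 48.7, 52.8 and 57.0 CPM and MAFG libraries at 36.0, 34.1 and 37.7 CPM. This log2 fold change of -0.56 (SE 0.08) passed the adjusted p threshold but not the fold limit. A375 libraries overlapped, with a log2 fold change of 0.24 (SE 0.18) that ranged from 0.04 without MAFG replicate 3 to 0.39 without MAFG replicate 1. At the adjusted p threshold without a fold limit, the share of all tested genes was 16.2% higher and 15.6% lower in WM164, 14.6% and 15.3% in SKMEL28 and 0.780% and 0.0634% in A375.

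TGFBI encodes a secreted matrix protein and was substantially expressed in A375 cells alone among these lines, at 5.29, 5.33 and 3.99 CPM with GFP and 5.91, 5.41 and 5.86 CPM with MAFG. In CPM these did not overlap, with a log2 fold change of 0.23 (SE 0.19) that was not called. In deposited TPM the A375 groups overlapped, at 1.44 to 2.29 with GFP and 1.47 to 1.95 with MAFG. The log2 fold change was -0.02 on log2(TPM + 1) and on log2(TPM + 0.1). In SKMEL28 the counts were 0, 6 and 5 with GFP and 17, 21 and 11 with MAFG, a log2 fold change of 1.97 (SE 0.78), which was not called either. In WM164 the counts were 2, 2 and 9 with GFP and 9, 14 and 3 with MAFG, which overlapped, and no test was made.

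The log2 fold changes of INHBA, FST and PMEPA1 with MAFG had different sizes in the 3 lines, as measured in one fit of all 18 libraries. These differences are a description and were not tested, since the same fold changes chose the genes. For INHBA the log2 fold change in WM164 exceeded that in SKMEL28 by 2.45 (SE 0.29) and that in A375 by 3.62 (SE 0.25). For FST these differences were 1.63 (SE 0.33) and 4.86 (SE 0.25), and SKMEL28 exceeded A375 by 3.23 (SE 0.22). For PMEPA1 A375 had the largest response: WM164 was below A375 by -2.08 (SE 0.25) and SKMEL28 was below A375 by -2.46 (SE 0.25), while WM164 and SKMEL28 differed by 0.38 (SE 0.23). The TGFB1 response in WM164 exceeded that in SKMEL28 by 1.40 (SE 0.23), and the SKIL response by 0.84 (SE 0.20).

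Ordered by mean CPM over the 6 conditions, INHBA was highest in WM164 with MAFG (29.8 ± 1.60), followed by A375 with MAFG (22.9 ± 3.003), A375 with GFP (13.7 ± 1.798) and SKMEL28 with MAFG (5.90 ± 1.12; SD, n = 3 each), all without overlap between neighbors. The GFP libraries of SKMEL28 and WM164 shared the lowest place, with overlapping values. PMEPA1 was highest in WM164 with MAFG (20.9 ± 0.471), and its 3 MAFG conditions took the first 3 places. For SMAD7, SKIL and TGFBI the order followed the line: both SKMEL28 conditions came first for SMAD7 and SKIL (for SKIL overlapping with A375 libraries with MAFG), and both A375 conditions for TGFBI.

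Among 18766 other genes, the 3 whose log2 CPM followed INHBA most closely over the 18 libraries were NRP1 (Pearson r 0.975), SEMA3A (0.963) and CACNA2D3 (0.947), and 14 genes had an r of 0.9 or more. For FST they were SERTAD4 (0.988), TLR4 (0.979) and KCNN4 (0.977), among 267 genes at 0.9 or more. For PMEPA1 they were CDC42EP3 (0.910), HR (0.883) and ART3 (0.879), and 1 gene reached 0.9. The ligand TGFB1 was followed by LAMA5 (0.992), TPT1 (0.991) and COL27A1 (0.991), TGFB2 by SOX8 (0.983), DLGAP1 (0.980) and ARHGEF17 (0.980), and TGFB3 by LRPAP1 (0.984), C5orf15 (0.980) and TMED9 (0.979). SMAD7 was followed by SLC16A1-AS1 (0.978), PDE10A (0.976) and ATP2B4 (0.976), SKIL by FOXJ3 (0.972), KIAA1217 (0.969) and SFT2D2 (0.968), and TGFBI by CDH13 (0.990), KRT80 (0.986) and ANK1 (0.984). The libraries of a line share its levels, so that 204 to 1616 genes had an r of 0.9 or more with the latter 3 genes, and these values describe likeness of pattern alone.

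The remaining genes of the pathway were taken from 5 lists by role, 92 genes in all. In WM164, 69 were tested, of which 7 were called higher and 2 lower; 25 passed the adjusted p threshold in the higher direction and 9 in the lower. The shares of all tested genes in WM164 were 4.94% and 2.0% called, and 16.2% and 15.6% past the adjusted p threshold. In SKMEL28, 65 were tested, 4 called higher and 1 lower, with 14 and 17 past the adjusted p threshold, against 1.76%, 2.98%, 14.6% and 15.3% of all tested genes. In A375, 68 were tested, 1 called higher and 0 lower, with 1 and 0 past the threshold, 11 and 6 at an unadjusted p under 0.05, and 2 and 0 called by DESeq2. The share of all tested genes at an unadjusted p is not given, so that nothing is read from such counts here or below. The share of all tested genes called in A375 was 0.646% higher and 0.0190% lower. The median log2 fold change over the tested genes of the lists was 0.09, -0.08 and 0.06 in the 3 lines, against -0.00, -0.01 and 0 over all tested genes.

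**Figure D4:**
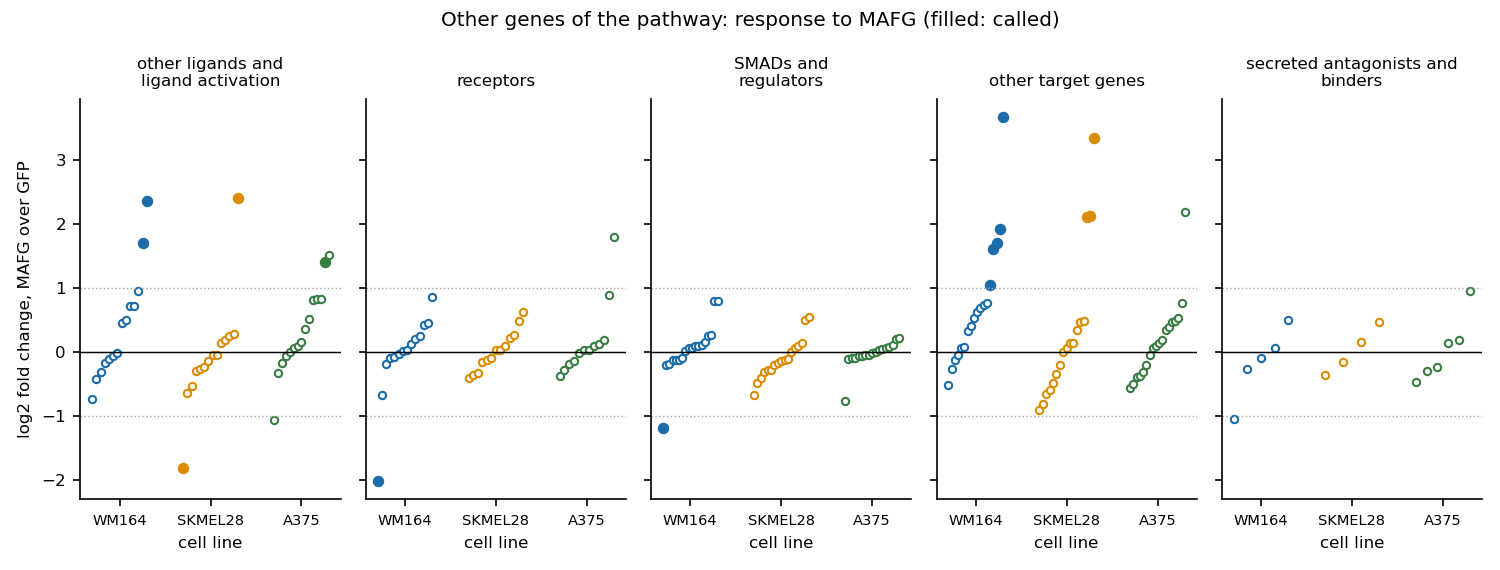
The log2 fold change of MAFG over GFP for the tested genes of the 5 lists (1 panel each), sorted by value within WM164 (blue), SKMEL28 (orange) and A375 (green). Filled points are called and dotted lines mark a fold change of 2. Of the target genes, 5 of 18 in WM164 and 3 of 17 in SKMEL28 are called, all above 0. Of all tested genes, 4.94% in WM164 and 1.76% in SKMEL28 were called higher.

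Other target genes held 5 of the 9 calls of the lists in WM164, 3 of 5 in SKMEL28 and 0 of 1 in A375. Of all tested genes in WM164, 4.94% were called higher and 2.0% lower, with 16.2% and 15.6% past the adjusted p threshold. Of 18 tested targets there, 11 passed that threshold in the higher direction and 1 in the lower, with a median log2 fold change of 0.59. By DESeq2, 4 were called higher and 0 lower, and by edgeR 5 and 0. They included CCN2, a matricellular growth factor regulator (log2 fold change 1.70, SE 0.08, adjusted p = 8.75e-12), COL4A1, a basement membrane collagen chain (1.60, SE 0.17, adjusted p = 6.86e-07, but 0.74 and not called on log2(TPM + 1)), ATOH8, a transcription factor known as a BMP target (1.92, SE 0.32, adjusted p = 0.000142), and IL11. IL11, a cytokine induced by TGF-beta, had 0 to 5 counts with GFP and 25 to 46 with MAFG in WM164 (3.67, SE 0.70, adjusted p = 0.000544). In SKMEL28, 3 of 17 tested targets were called higher and 0 lower by edgeR and by DESeq2, with a median of 0.06. The shares of all tested genes were 1.76% and 2.98%. At the adjusted p threshold alone, 4 targets were higher and 5 lower by edgeR, and 5 and 5 by DESeq2. Of all tested genes, 14.6% and 15.3% passed it in these directions. Among the called targets, COL4A1 went from 1 to 5 counts to 15 to 48 counts (3.35, SE 0.66, adjusted p = 0.0012). IL11 in SKMEL28 (2.12, SE 0.64, adjusted p = 0.0203) had 3 to 5 counts with GFP and 11 to 27 with MAFG, and was not called without GFP replicate 1 (2.29), GFP replicate 2 (2.16), GFP replicate 3 (1.94) or MAFG replicate 1 (1.75). In A375, 0 of 18 targets passed the adjusted p threshold in edgeR, where 4 were higher and 3 lower at an unadjusted p under 0.05, and DESeq2 passed 1 and 1. In A375 cells with GFP, COL4A1 was at 59.9 ± 4.13 CPM and CCN2 at 89.1 ± 4.98 CPM. The part of these starting levels in the A375 responses was not tested.

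Among other ligands and the proteins that store or release latent ligand, DESeq2 called 3 higher in WM164. By edgeR, 2 of 14 tested were called higher and 0 lower there, against 4.94% and 2.0% of all tested genes. These were BMP2 (log2 fold change 2.36, SE 0.42, adjusted p = 0.000286, from 7 to 16 counts to 44 to 73) and BMP7 (1.71, SE 0.11, adjusted p = 1.07e-09, from 6.36 ± 0.686 to 20.9 ± 0.815 CPM), both bone morphogenetic proteins that signal through other SMADs. In SKMEL28, THBS1, whose product thrombospondin can free latent TGF-beta, was called higher (2.41, SE 0.27, adjusted p = 6.4e-06, from 0.919 ± 0.172 to 4.91 ± 1.06 CPM). LTBP2, of the latent TGF-beta binding protein family, was called lower there (-1.81, SE 0.54, adjusted p = 0.0176), but not without GFP replicate 1 (-1.49) or MAFG replicate 2 (-1.35). In A375 the integrin gene ITGB8, whose product pairs with ITGAV and frees latent TGF-beta, was the single gene of the 5 lists that was called (1.40, SE 0.21, adjusted p = 0.0112, from 3.76 ± 0.284 to 9.94 ± 2.10 CPM). It was not called without GFP replicate 1 (1.40), GFP replicate 2 (1.34), GFP replicate 3 (1.46) or MAFG replicate 2 (1.27).

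Of the receptors, 1 of 14 tested in WM164 was called lower and 0 higher, against 2.0% and 4.94% of all tested genes. This was ACVR1C, a type I receptor used by Nodal and some activins (-2.01, SE 0.27, adjusted p = 1.32e-05, from 5.79 ± 0.215 to 1.44 ± 0.722 CPM). By edgeR, 0 of 13 were called in SKMEL28 (8 had an unadjusted p under 0.05, and DESeq2 also called 0) and 0 of 12 in A375 (2 with an unadjusted p under 0.05). DESeq2 called 1 in A375, the decoy receptor BAMBI, which is named here after its value was seen. Of the SMADs and their regulators, SMAD9, a BMP SMAD, was called lower in WM164 (-1.18, SE 0.10, adjusted p = 5.95e-08, from 42.7 ± 0.746 to 18.8 ± 3.29 CPM) but not on log2(TPM + 1) (-0.76) or log2(TPM + 0.1) (-0.98), and 0 of 17 tested were called in each of the other lines by edgeR or DESeq2. At an unadjusted p under 0.05, 11 of these genes passed in SKMEL28 and 0 in A375. Of all tested genes in SKMEL28, 14.6% were higher and 15.3% lower past the adjusted p threshold. Their share at an unadjusted p is not given. Of 15 secreted antagonists and binders other than FST, 5, 4 and 6 were tested in WM164, SKMEL28 and A375, and 0 were called by edgeR or DESeq2 (2, 2 and 2 had an unadjusted p under 0.05). FSTL3, the nearest relative of follistatin, had mean levels of 2.05 to 3.37 CPM over the 6 conditions.

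Of the 12 called genes of the lists, several responded differently in the 3 lines when the difference itself was tested over all genes. The share of tested genes called in that test was 5.10% between WM164 and SKMEL28, 4.39% between WM164 and A375 and 4.20% between SKMEL28 and A375. CCN2 went in opposite directions: it was higher with MAFG in WM164, from 18.2 ± 0.739 to 58.9 ± 2.89 CPM, and lower in SKMEL28, from 32.1 ± 1.10 to 18.2 ± 2.87 CPM. The difference of its log2 fold changes was 2.51 (SE 0.15, adjusted p = 2.41e-10). The responses of BMP2 and BMP7 in WM164 also exceeded those in SKMEL28, by 2.502 (SE 0.53, adjusted p = 0.00291) and by 1.76 (SE 0.30, adjusted p = 0.000472). Compared with A375, SKMEL28 had the larger response of THBS1, by 2.58 (SE 0.47, adjusted p = 0.00135), while A375 had the larger response of ITGB8.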

How the data were processed

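RNA-seq was performed in 18 libraries of WM164, SKMEL28 and A375 melanoma cells expressing MAFG or GFP, 3 per condition as the labels give them. The authors deposited whole-number counts for 58870 genes, neither normalized nor pooled; per their methods, featureCounts made them from unique STAR alignments (GRCh38) after trimming. The submitters' processing notes name cutadapt 1.8.1, STAR 2.7.7a, RSEM 1.3.0 and DESeq2. The authors also deposited TPM values, scaled per library. The labels name a non-stranded kit and the methods a strand-specific one, and the use of strand in counting is not given in the sources used here.

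Counts of each line were fitted with edgeR 4.0.16 in R 4.3.3 (TMM normalization, filterByExpr, quasi-likelihood test, Benjamini-Hochberg over all tested genes). The standard error is the log2 fold change over the square root of F. CPM used TMM over all 18 libraries, and correlations log2(CPM + 0.5). Differences between lines were contrasts in one model of 18 libraries. The steps were tested on simulated data. Alternatives used DESeq2 1.42.0, limma 3.58.1 on log2(TPM + 1) or log2(TPM + 0.1), other filters and scalings, a replicate block and each library left out; reading them for each called gene of the lists was chosen after seeing the data. Depth limits genes of few counts.

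The 9 genes, the lists and the tests were chosen with earlier results of these data known. Besides the 9 genes, those named are up to 3 called genes of the smallest adjusted p per list and line, the 3 genes most correlated with each of the 9, MAFG, and markers. Related subunits, FSTL3, BAMBI and overlapping genes were named after their values were seen. One called gene of the lists enters the counts and is not reported here. Sequences are from RefSeq (GRCh38.p14), and overlaps from GENCODE.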

Additional observations from a re-analysis of the deposited data

Results flagged for a closer look

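Among the 9 genes, 4 contrasts between lines had every MAFG library above the GFP libraries in one line and below them in the other. TGFB1 and SKIL were higher with MAFG in WM164 and lower in SKMEL28, with a difference of log2 fold changes of 1.40 and 0.84. In CPM, FST was higher with MAFG in WM164 and SKMEL28 and lower in A375, with differences of 4.86 and 3.23. The A375 value of -0.19 (SE 0.11) was not called. In TPM the A375 groups overlapped, at 51.8 to 69.4 with GFP and 41.7 to 61 with MAFG. The differences of the 4 contrasts were not tested, since the same values chose the genes.

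Among the called genes of the lists that are named here, the difference of the response between lines passed the edgeR test over all genes in 14 contrasts. Between WM164 and SKMEL28 it was 2.32 for LTBP2, 2.502 for BMP2, 1.76 for BMP7, -1.68 for ACVR1C, 2.51 for CCN2, -1.77 for COL4A1 and 1.45 for ATOH8. Between WM164 and A375 it was 2.08 for CCN2, 3.13 for IL11 and 1.21 for COL4A1. Between SKMEL28 and A375 it was -1.98 for LTBP2, -1.15 for ITGB8, 2.58 for THBS1 and 2.98 for COL4A1. The ATOH8 difference was called in 8 of 22 alternatives (adjusted p 0.0123 to 0.113), the COL4A1 difference between WM164 and SKMEL28 in 13 of 21 (adjusted p 0.00138 to 0.174), and the LTBP2 difference between SKMEL28 and A375 was not called without SKMEL28 GFP replicate 1 (-1.65). The other 11 were called in every alternative that gave a value.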

How the results depend on the processing

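INHBA, FST and PMEPA1 in WM164 were called in 14 of 14 alternatives, FST in SKMEL28 in 14 of 14 and INHBA there in 12 of 12. PMEPA1 and TGFB1 in SKMEL28 were each called in 10 of 14, and PMEPA1 in A375 in 13 of 14, with log2(TPM + 0.1) as the exception (2.75). SKIL in SKMEL28 was called in 1 of 14 (-1.08 on log2(TPM + 0.1)). No called value of the 9 genes changed sign. On log2(TPM + 1), low genes are pulled together by the pseudocount, and FST in WM164 was 1.98. Few counts limit TGFBI in WM164 and SKMEL28, and TGFB2 and TGFB3 outside WM164.

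Of all genes, 1105 were called in WM164, 736 in SKMEL28 and 105 in A375. In WM164 the count was 734 with at least 10 counts in every library, 384 on log2(TPM + 1), 617 on log2(TPM + 0.1) and 5065 without a fold limit. In SKMEL28 it was 226, 411 and 4640 on the latter 3. In A375 it was 173 with DESeq2, 216 without a count filter, 64 with at least 10 counts, 311 with all 18 libraries in one model, 19 on log2(TPM + 1) and 15 on log2(TPM + 0.1). Of the 9 genes, 5 were called in WM164 without a fold limit, 1 and 2 in SKMEL28 on log2(TPM + 1) and log2(TPM + 0.1), and 0 in A375 on log2(TPM + 0.1). Of the lists, 3, 5 and 34 were called in WM164 on log2(TPM + 1), on log2(TPM + 0.1) and without a fold limit. In SKMEL28 it was 2 with at least 10 counts, 1 and 1 on the TPM scales and 31 without a fold limit. In A375 it was 2 with DESeq2, 3 without a count filter, 4 with 18 libraries in one model, and 0 and 0 on the TPM scales. Fewer genes are tested with at least 10 counts, and the cause of the other shifts was not tested.

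Leaving out 1 library gave 1051 to 1103 called genes in WM164, 678 to 726 in SKMEL28 and 55 to 153 in A375, where the lowest counts were 55 without MAFG replicate 2, 63 without GFP replicate 1, 65 without GFP replicate 3 and 67 without GFP replicate 2. For the 9 genes it gave 3 to 3, 3 to 4 and 1 to 1, and for the lists 8 to 9, 3 to 5 and 0 to 2.

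Replicate numbers did not pair the libraries: same-numbered MAFG and GFP libraries had correlated deviations of -0.125 to 0.046. With the number as a replicate block, 64 genes were called in A375, 1056 in WM164, and the counts of the 9 genes were the same in each line. Of single values, 34 log2 fold changes and 15 differences between lines of the 9 genes moved by more than the spread between replicates.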
